A study of Mus musculus with 24 samples.

Results

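Cholesterol efflux and lysosomal cholesterol export are described here through 10 named genes out of 56941 gene IDs counted in a mouse hypothalamic cell line. The genes were chosen by name, not by level, but with earlier results of these data known. Npc2, Npc1 and Lipa stand for the way out of the lysosome, and Nr1h3 and Nr1h2 for the LXR receptors. Abca1, Abcg1, Apoe and Mylip are known LXR targets, and Soat1 stands for esterification. Of the 10 genes, 9 passed the filter on low counts and were tested among 13281 genes, and Abcg1 did not. Npc2, Npc1 and Apoe were higher in high glucose than in normal glucose, by 1.35-fold, 1.49-fold and 1.68-fold over all treatment levels. Neither LXR receptor, nor Abca1, Mylip, Soat1 or Lipa, passed the test for the medium. None of the 9 passed it for mogroside V, where at most 0.128% of all tested genes did in any comparison.

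Cells take up cholesterol esters in lipoproteins and free the cholesterol in the lysosome. NPC2, a soluble lysosomal protein, hands free cholesterol to NPC1 in the lysosomal membrane, and loss of either protein traps cholesterol in lysosomes. Surplus sterol is esterified by SOAT1 or converted to oxysterols, which activate the LXR receptors and so raise the efflux transporters ABCA1 and ABCG1, the lipoprotein component APOE, and MYLIP, a ubiquitin ligase that lowers lipoprotein uptake. The brain makes its own cholesterol and moves it between cells on APOE particles that come mostly from glia.

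The cells were cultured in high glucose with mogroside V at dose label 1, 2 or 3 (HG1, HG2, HG3) or without it (HGC), and in normal glucose with the same dose labels (NG1, NG2, NG3) or without it (NGC). Mogroside V is a sweet-tasting glycoside from monk fruit; the design names concentrations of 15, 60 and 160 µM, and which dose label stands for which of them is not stated. Nor do the sources used here give the glucose concentrations, the treatment time or the name of the line, and no label says that the replicates are separate cultures, so p-values measure the spread between these libraries, which may be technical. Each group had 3 libraries, but HG2 replicate 3 and HG3 replicate 2 were deposited with identical counts, and both were left out, which leaves n = 2 in HG2 and HG3, 10 high-glucose and 12 normal-glucose libraries.

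The 22 libraries held 3396249 to 7773074 counts assigned to genes, with a median of 3864825. NG3 replicate 3 stood apart from the others on the first 2 principal components, and HGC replicate 2 stood apart less far. Levels are in CPM, gene counts scaled to a total of 1000000 per library, and differences are log2 fold changes ± standard error from edgeR's quasi-likelihood test, adjusted by the Benjamini-Hochberg method over the 13281 genes with a threshold of 0.05. The labelled neuronal identity was not borne out by all of its markers: Tubb3 and Map2 averaged 58.8 and 47.5 CPM, but Rbfox3, Snap25 and Syt1 averaged 0.121, 0.0358 and 0.163 CPM, and Elavl4 was at 0. Collagen genes were abundant, with Col1a2 at 3301 CPM and Col1a1 at 1363 CPM on average.

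The promoters of 2 members are shown, Npc2 because it changed with the smallest p and Abca1 because it carries the known LXR element and did not pass the test. They are RefSeq promoters of build GRCm38.p6, from 250 bases before to 50 bases after the start site, at chr12:84773063-84773362 on the minus strand for Npc2 and chr4:53159846-53160145 on the minus strand for Abca1. Capitals mark CCAAT on either strand in Npc2, and in Abca1 the E-box CACGTG and, read on the other strand, the half-sites GGTTA and GGTCA with 5 bases between them.
Npc2: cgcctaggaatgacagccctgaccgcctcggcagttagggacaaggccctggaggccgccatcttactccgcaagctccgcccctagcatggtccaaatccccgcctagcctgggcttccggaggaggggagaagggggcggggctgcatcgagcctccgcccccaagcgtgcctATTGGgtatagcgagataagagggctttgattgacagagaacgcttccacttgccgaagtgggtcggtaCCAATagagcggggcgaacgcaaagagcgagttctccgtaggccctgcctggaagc
Abca1: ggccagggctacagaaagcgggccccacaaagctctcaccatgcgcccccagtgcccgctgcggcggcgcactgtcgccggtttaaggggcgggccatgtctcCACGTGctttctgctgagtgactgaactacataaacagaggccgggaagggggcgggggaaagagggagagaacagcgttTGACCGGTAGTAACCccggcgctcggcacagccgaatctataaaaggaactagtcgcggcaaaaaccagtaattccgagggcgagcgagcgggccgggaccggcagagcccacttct

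RefSeq promoters were found for 8 of the 10 members, in 11 entries, and 4 motifs were searched on both strands. Members were counted per gene, whereas the shares are of single promoters, so the 2 are not alike. The consensus LXR repeat, 2 copies of AGGTCA with 4 bases between them, was in none of the 8 and in 0.0152% of 32851 promoters. A variant, GGTTA and GGTCA with 5 bases between them, was searched because the Abca1 element was known, so its match in Abca1 was known beforehand. Its half-sites are written shorter than AGGTCA. With the last spacer base counted into the second half-site, 4 bases lie between them, as in the consensus repeat. This variant was in Abca1 alone, at -67 from the start site, and in 0.0487% of promoters. CACGTG was in Abca1 alone, at -147, and in 7.15% of promoters. CCAAT, found in 37.4% of promoters, was in 4 members: Npc2, at -75 and -6, Soat1, Mylip and Lipa. The motifs do not overlap in the Npc2 and Abca1 promoters, and a match is a match of letters, not a bound site.

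Per kilobase of exon, the members spanned a wide range of levels. Npc2 averaged 99.1 CPM per kilobase, above 96.2% of the tested genes. Soat1, at 11.8, and Apoe, at 11.4 CPM per kilobase, came next, then Nr1h2 at 7.71 and Lipa at 6.64. Npc1, Nr1h3, Mylip and Abca1 lay close together, at 3.80, 3.56, 2.91 and 2.85 CPM per kilobase. The order among these 4 rests on exon lengths of an annotation from a different build than the counts.

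In high glucose without mogroside V, 3 of the 9 tested members rose and none fell, where 1.89% of all tested genes rose and 0.392% fell. The same 3, Npc2, Npc1 and Apoe, had all 3 HGC libraries above all 3 NGC libraries, which 8.46% of tested genes did. Over all treatment levels 3 of 9 rose again, where 5.71% of all genes rose and 4.38% fell. Among the treated libraries alone it was 3 of 9, where 4.69% rose and 3.41% fell. These comparisons share libraries, and the members were chosen with earlier results of these data known. The median log2 fold change of the 9 members was 0.30 in HGC against NGC and 0.12 over all levels, and that of all tested genes was -0.01 in each.

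Npc2, the soluble carrier that binds cholesterol inside the lysosome, had 623, 633 and 629 CPM in HGC, against 400.4, 373 and 433 CPM in NGC. In the treated high-glucose libraries it had 558, 566 and 661 CPM in HG1, 647 and 650.1 CPM in HG2, and 596 and 612 CPM in HG3. In the treated normal-glucose libraries it had 508, 452 and 505 CPM in NG1, 538, 467 and 517 CPM in NG2, and 486, 419.9 and 583 CPM in NG3. Of the 10 high-glucose libraries 8 lay above every normal-glucose library, and of the 12 normal-glucose libraries only NG3 replicate 3, at 583 CPM, reached into the high-glucose range.

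Npc2 was higher by 0.65 ± 0.10 in HGC against NGC (adjusted p = 5.57e-05, edgeR), by 0.43 ± 0.05 over all levels (adjusted p = 1.46e-07) and by 0.36 ± 0.06 among treated libraries (adjusted p = 0.000144). HGC was the tightest group of 3 for this gene, with a coefficient of variation of 0.824%, and NG3 the widest, at 16.5%. Without NG3 replicate 3 and HGC replicate 2 the difference over all levels was 0.47 ± 0.05. Ordered by mean, the 4 normal-glucose groups (NGC, NG1, NG3, NG2) lay below the 4 high-glucose groups (HG1, HG3, HGC, HG2). Neighbours in this order overlapped except NGC and NG1, NG2 and HG1, HG3 and HGC, and HGC and HG2.

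Npc1, the membrane protein that takes cholesterol over from NPC2, had 45.4, 52.8 and 62.1 CPM in HGC, against 31.1, 35.9 and 35.8 CPM in NGC. The treated high-glucose values were 65.8, 42.8 and 52.1 CPM in HG1, 56.5 and 54.7 CPM in HG2, and 48.5 and 37.4 CPM in HG3. In treated normal-glucose libraries Npc1 had 39.4, 39.8 and 34.6 CPM in NG1, 47.6, 39.8 and 35.9 CPM in NG2, and 27.4, 33.6 and 25.8 CPM in NG3. The controls did not overlap, and over all levels 7 of 10 high-glucose libraries lay above every normal-glucose library. HG3 replicate 3 was the lowest high-glucose library and NG2 replicate 1 the highest normal-glucose one. From low to high mean the groups ran NG3, NGC, NG1, NG2, HG3, HGC, HG1 and HG2, and each overlapped with the next.

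Npc1 rose by 0.65 ± 0.17 in HGC against NGC (adjusted p = 0.0237, edgeR), by 0.57 ± 0.09 over all levels (adjusted p = 1.02e-05) and by 0.55 ± 0.10 among treated libraries (adjusted p = 0.000404). Its call between the controls was lost in 5 of the 6 fits that left out 1 control library, with adjusted p of 0.152 (NGC replicate 1 left out), 0.0607 (NGC replicate 2), 0.0551 (NGC replicate 3), 0.0744 (HGC replicate 2) and 0.175 (HGC replicate 3). The call over all levels held in each of 30 alternative fits. Npc1 exons overlap those of Rmc1 on the opposite strand over 511 bases, 4.52% of the Npc1 exon length. Whether reads were counted by strand is not stated. Reads of the shared bases may have been assigned to a gene or set aside as ambiguous. Rmc1 itself had 11.0 ± 3.61 CPM in high glucose (SD, n = 10) and 10.7 ± 2.84 CPM in normal glucose (SD, n = 12).

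Apoe, the apolipoprotein that accepts effluxed cholesterol, had 23.0, 34.3 and 35.6 CPM in HGC, against 13.1, 16.9 and 16.8 CPM in NGC. In treated high-glucose libraries it had 28.8, 29.4 and 30.7 CPM in HG1, 27.7 and 23.8 CPM in HG2, and 39.2 and 35.0 CPM in HG3. The treated normal-glucose values were 19.4, 18.4 and 14.9 CPM in NG1, 21.6, 15.7 and 32.8 CPM in NG2, and 19.3, 13.9 and 24.8 CPM in NG3. The controls did not overlap, although HGC replicate 1 was the lowest high-glucose library. Over all levels only 4 of 10 high-glucose libraries lay above every normal-glucose library. At dose label 2 the media overlapped, because NG2 replicate 3, at 32.8 CPM, lay above both HG2 libraries. From low to high mean the groups ran NGC, NG1, NG3, NG2, HG2, HG1, HGC and HG3, and each overlapped with the next except HG2 and HG1.

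Apoe had the largest log2 difference of the members in these 3 comparisons, at 1.01 ± 0.23 in HGC against NGC (adjusted p = 0.00611, edgeR), 0.75 ± 0.12 over all levels (adjusted p = 1.17e-05) and 0.67 ± 0.14 among treated libraries (adjusted p = 0.00108). The call between the controls was lost without NGC replicate 1 (adjusted p = 0.0769), HGC replicate 2 (0.0576) or HGC replicate 3 (0.0541), and the call over all levels held in each of 30 alternative fits. Apoe is a gene of astrocytes and microglia in brain, so the markers of these cells stand beside it. The summed level of 7 astrocyte and tanycyte markers was 2.45 to 11.2 CPM in high glucose and 4.41 to 13.97 CPM in normal glucose, with Aqp4 at 0 and Gfap at 0.0594 CPM on average. The sum of 8 microglia and macrophage markers was 161 to 207 CPM in high glucose and 130 to 219 CPM in normal glucose. Nearly all of it was Tmem119, at 159 CPM on average, and Itgam was at 0. Of the 4 tested genes of that list 1 rose and none fell, with a median of -0.02. Of all tested genes 5.71% rose and 4.38% fell. Csf1r, a macrophage receptor gene, rose by 0.88 ± 0.22 over all levels (adjusted p = 0.00533), with 9.42 ± 4.56 CPM in high glucose (SD, n = 10) and 5.36 ± 1.82 CPM in normal glucose (SD, n = 12). Tmem119, Cd68 and Cx3cr1 differed by 0.01 ± 0.07, -0.10 ± 0.34 and -0.06 ± 0.28 and did not pass. The part of Csf1r in the Apoe difference was not tested, and in bulk RNA a change in the number of cells of a type cannot be told apart from a change in RNA per cell.

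**Figure D1:**
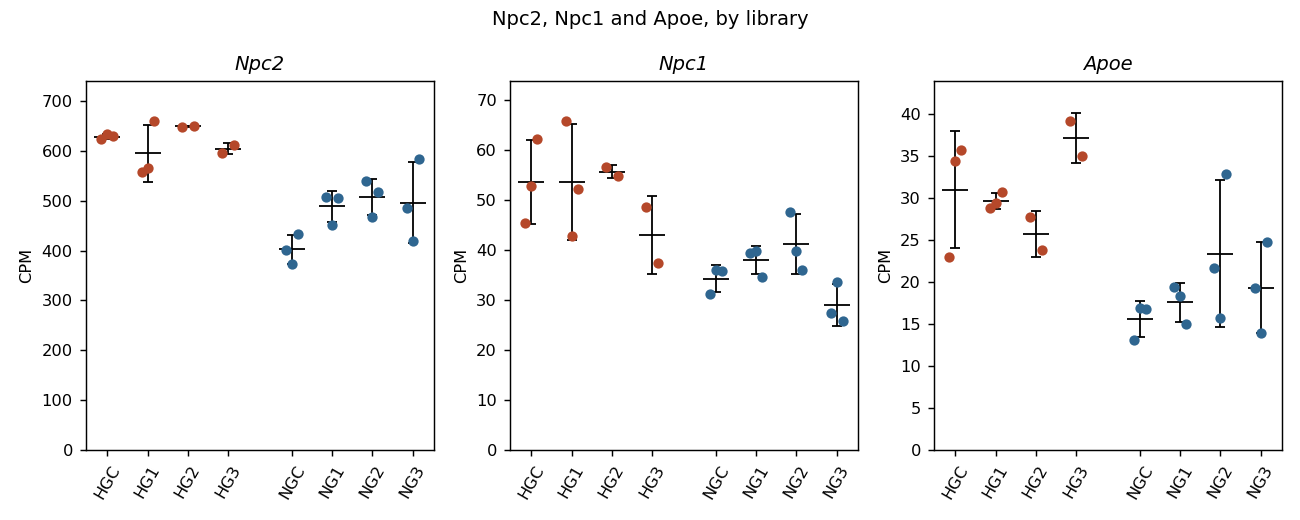
Levels of Npc2, Npc1 and Apoe (CPM, y axis) in each library, in the 4 high-glucose groups and the 4 normal-glucose groups (x axis), with points for libraries, horizontal lines for group means and error bars for the SD. For Npc2 the HGC libraries lie at 623 to 633 CPM and the NGC libraries at 373 to 433 CPM.

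The other 6 tested members did not pass the test for the medium. Over all levels their ranges overlapped between the media, as did those of Npc2, Npc1 and Apoe. Abca1, the transporter that loads cholesterol onto apolipoproteins, had 25.6, 27.5 and 24.5 CPM in HGC, against 24.95, 28.8 and 20.1 CPM in NGC. Its difference was 0.08 ± 0.20 between the controls (adjusted p = 0.934, edgeR) and -0.12 ± 0.11 over all levels (adjusted p = 0.561). The 95% interval over all levels, -0.34 to 0.10, leaves room for a difference of either sign. By group mean Abca1 was lowest in NGC, at 24.6 CPM, and highest in NG2, at 37.0 CPM, and each group overlapped with the next in that order.

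The LXR receptors did not pass the test in any of the comparisons. Nr1h2, which encodes LXR beta, averaged 23.9 ± 4.14 CPM in high glucose (SD, n = 10) and 27.5 ± 5.62 CPM in normal glucose (SD, n = 12), a difference of -0.13 ± 0.11 over all levels (adjusted p = 0.515, edgeR). Nr1h3, which encodes LXR alpha, averaged 9.54 ± 2.97 CPM in high glucose and 8.45 ± 2.22 CPM in normal glucose, a difference of 0.18 ± 0.18 (adjusted p = 0.616). The interval of Nr1h3 between the controls was wide, from -0.30 to 1.07.

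Lipa, the lysosomal acid lipase, and Soat1, the enzyme that esterifies cholesterol in the endoplasmic reticulum, had the narrowest standard errors after Npc2. Lipa averaged 45.8 ± 3.11 CPM in high glucose (SD, n = 10) and 44.4 ± 3.80 CPM in normal glucose (SD, n = 12), with a difference of 0.09 ± 0.08 and a 95% interval of -0.06 to 0.24. Soat1 averaged 119 ± 6.12 CPM in high glucose and 112 ± 11.98 CPM in normal glucose, with a difference of 0.12 ± 0.06 (adjusted p = 0.289, edgeR) and a 95% interval of -0.01 to 0.25. Both upper bounds lie below the estimate of 0.43 for Npc2.

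Mylip, the ubiquitin ligase that lowers lipoprotein uptake, varied most among normal-glucose libraries. It had 9.51, 10.4 and 10.3 CPM in HGC, 6.53, 9.03 and 7.40 CPM in HG1, 9.72 and 8.68 CPM in HG2, and 7.27 and 7.65 CPM in HG3. In normal glucose it had 6.72, 6.66 and 11.4 CPM in NGC, 9.32, 15.8 and 9.72 CPM in NG1, 20.3, 5.90 and 7.18 CPM in NG2, and 4.56, 15.5 and 7.38 CPM in NG3. The coefficient of variation was 3.63 to 16.6% in the high-glucose groups and 31.4 to 71.7% in the normal-glucose groups, a difference in spread that was not tested. The lowest value, 3.63%, came from HG3, with n = 2. Libraries held 18 to 158 Mylip counts, so counting error is part of the spread. The difference in level was -0.20 ± 0.21 over all levels (adjusted p = 0.632, edgeR).

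Abcg1, the transporter that passes cholesterol to formed lipoproteins, was near the limit of detection. It had 4 counts in 1 of 10 high-glucose libraries and 4 counts in 2 of 12 normal-glucose libraries. Summed, that is 0.107 CPM in high glucose (95% exact Poisson interval 0.0290 to 0.273, counting error only) and 0.0762 CPM in normal glucose (0.0208 to 0.195). A library without a count allows up to 3 counts, which is 0.386 to 0.883 CPM at these depths, so a difference was not detectable.

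**Figure D2:**
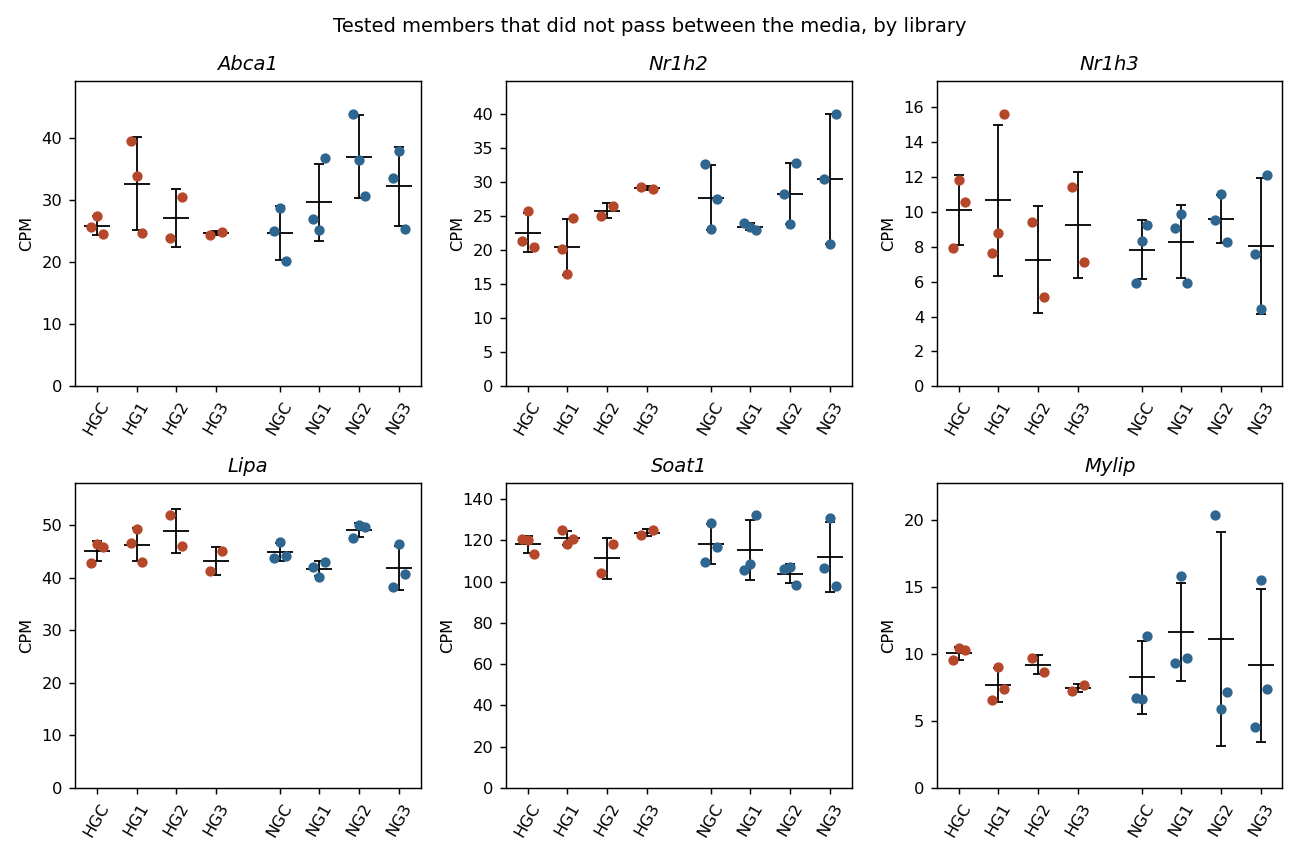
Levels of Abca1, Nr1h2, Nr1h3, Mylip, Soat1 and Lipa (CPM, y axis) in each library by group (x axis), with points for libraries, horizontal lines for group means and error bars for the SD. The high-glucose and normal-glucose libraries overlap in each panel, and Mylip reaches 20.3 CPM in 1 NG2 library.

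The difference between the media was also taken at each dose label. Npc2 was higher by 0.33 ± 0.10 in HG1 against NG1, 0.40 ± 0.11 in HG2 against NG2 and 0.36 ± 0.11 in HG3 against NG3. Npc1 was higher by 0.54 ± 0.17, 0.47 ± 0.18 and 0.63 ± 0.19 at labels 1, 2 and 3, and like Npc2 it did not pass the test at any of them in the fit of 22 libraries. Apoe differed by 0.80 ± 0.23 at label 1 (adjusted p = 0.0571, edgeR), 0.19 ± 0.25 at label 2 (adjusted p = 0.872) and 1.02 ± 0.24 at label 3 (adjusted p = 0.0253).

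At dose labels 1, 2 and 3 the number of members called was therefore 0, 0 and 1 of 9, where 1.66%, 0.76% and 0.919% of all tested genes were called. The Apoe difference at label 3 did not pass without HG3 replicate 1 (0.93 ± 0.31, adjusted p = 0.248) or HG3 replicate 3 (1.10 ± 0.30, adjusted p = 0.130), where HG3 is a single library assumed to vary like the other groups. Nor did it pass without NG3 replicate 2 (0.84 ± 0.26, adjusted p = 0.0910) or in a fit of these groups alone (1.02 ± 0.26, adjusted p = 0.280). Without NG3 replicate 3 and HGC replicate 2, Npc1, Npc2 and Apoe passed at label 1 (adjusted p = 0.0410, 0.0243 and 0.0232), and Npc2 also at label 2 (0.0217) and label 3 (0.0169). With the identical library placed in HG2, Npc1 passed at label 2 (0.63 ± 0.17, adjusted p = 0.0400), and with it in HG3 at label 3 (0.94 ± 0.19, adjusted p = 0.00246); that library had 72.1 CPM of Npc1, above all 22 others. A test of whether the medium difference varied over the 4 treatment levels called none of the 9 members and 0% of all genes, and 0 of the 9 had an unadjusted p under 0.05, where 6.90% of all genes had one; Apoe had the smallest adjusted p among members (adjusted p = 0.733, edgeR).

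**Figure D3:**
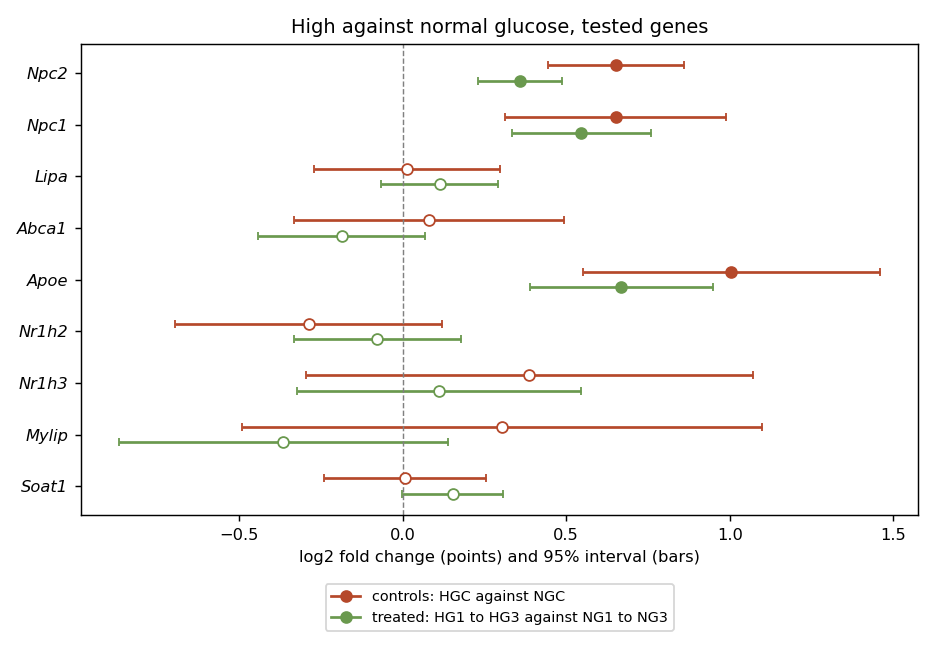
Log2 fold change of high against normal glucose (x axis) for the 9 tested genes (rows), in HGC against NGC (red) and in treated high against treated normal glucose (green), with points for estimates and bars for 95% intervals. Filled points passed an adjusted p of 0.05 and hollow ones did not; Npc2, Npc1 and Apoe are filled in both comparisons.

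Mogroside V was compared with the control within each medium. None of the 9 members passed the test in HG1, HG2 or HG3 against HGC, where 0% of all tested genes did, nor in NG1, NG2 or NG3 against NGC, where 0%, 0.00753% and 0.128% did. None passed with the treated groups pooled in either medium (0% of genes each), nor in the test of whether the pooled effect differed between the media (0.00753%). DESeq2 called 0 members in these 9 comparisons as well, and gave no adjusted p for 1 to 8 of the 10 members in each. At an unadjusted p under 0.05 there were 0 of 9 members in each comparison against HGC, where 4.51 to 7.78% of all tested genes were. There were 1, 3 and 1 of 9 in NG1, NG2 and NG3 against NGC, where 4.88%, 6.46% and 10.4% of all genes were. The pooled normal-glucose comparison had 2 of 9 (8.43% of all genes) and the test between the media 1 of 9 (8.48%). Comparisons within a medium share their control libraries.

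Npc2 had the smallest p for treatment in normal glucose. Its log2 difference from NGC was 0.25 ± 0.10 in NG1, 0.29 ± 0.10 in NG2 and 0.23 ± 0.10 in NG3, and 0.26 ± 0.09 pooled (adjusted p = 0.293, edgeR). NG3 replicate 2, at 419.9 CPM, lay below the highest NGC library. In high glucose the pooled difference from HGC was -0.04 ± 0.09, and the difference between these effects was -0.29 ± 0.12 (adjusted p = 0.491).

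Abca1 differed from NGC by 0.24 ± 0.20 in NG1, 0.55 ± 0.20 in NG2 and 0.33 ± 0.20 in NG3. It had 43.9, 36.4 and 30.6 CPM in NG2, against 24.95, 28.8 and 20.1 CPM in NGC, and the difference did not pass (adjusted p = 0.559, edgeR). In high glucose it differed from HGC by 0.34 ± 0.20 in HG1, 0.06 ± 0.23 in HG2 and -0.08 ± 0.23 in HG3. HG1 replicate 1, at 39.4 CPM, was the highest high-glucose library. With the treated groups pooled, Abca1 differed from NGC by 0.37 ± 0.17 (adjusted p = 0.527) and from HGC by 0.11 ± 0.18. Apoe differed from NGC by 0.53 ± 0.23 in NG2 (adjusted p = 0.675), where the replicates ran from 15.7 to 32.8 CPM and the lowest overlapped with NGC.

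**Figure D4:**
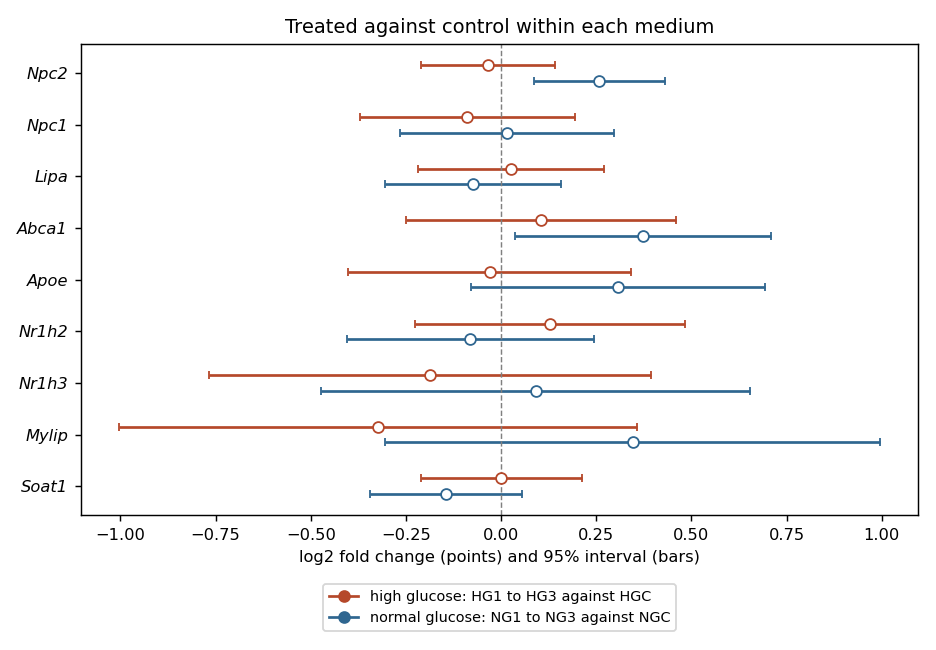
Log2 fold change of mogroside V against the control of the same medium (x axis) for the 9 tested genes (rows), with the treated groups pooled in high glucose (red) and in normal glucose (blue), points for estimates and bars for 95% intervals. All points are hollow, since none passed an adjusted p of 0.05; the unadjusted intervals of Npc2 and Abca1 in normal glucose lie above 0, and those of Mylip and Nr1h3 are the widest.

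Lists of related genes were counted for high against normal glucose over all levels, where 5.71% of all tested genes rose and 4.38% fell. The lists were chosen with earlier results of these data known, so their shares are descriptions only. Among other LXR targets 2 of 7 tested genes rose and none fell, with a median of 0.14. These were the fatty acid desaturases Scd2, higher by 0.31 ± 0.06, and Scd1, higher by 0.26 ± 0.07, which are also SREBP targets. Fasn, fatty acid synthase, differed by 0.14 ± 0.06 (adjusted p = 0.124, edgeR). Srebf1, which encodes SREBP1 and is a standard LXR target, differed by -0.04 ± 0.10. Of 8 tested LXR partners and coregulators none rose and 1 fell: Rxrb, a partner of LXR, fell by 0.29 ± 0.09, while its relative Rxra differed by 0.24 ± 0.09 (adjusted p = 0.0808). Of 7 genes that make or convert oxysterols and related sterols 2 were high enough to test, and neither passed.

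Of 17 tested genes for lysosomal lipid handling and sterol contact sites 4 rose and 2 fell, with a median of 0.11. The lysosomal membrane proteins Lamp2 and Lamp1 rose by 0.45 ± 0.05 and 0.52 ± 0.08. Tmem97, a regulator of NPC1 protein, rose by 0.38 ± 0.09. Gramd1a and Gramd1b, which carry cholesterol from the plasma membrane to the endoplasmic reticulum, fell by 0.56 ± 0.18 and 0.35 ± 0.10. Tmem97, Gramd1a and Gramd1b were named after their values were seen.

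Of 9 genes for esterification and lipid droplets 2 rose and none fell. Plin4, a droplet coat protein, had 17.0 ± 3.01 CPM in high glucose (SD, n = 10) and 4.58 ± 1.76 CPM in normal glucose (SD, n = 12), a difference of 1.91 ± 0.18, and Plin2 rose by 0.32 ± 0.09. Among 12 other transporters, apolipoproteins and lipoprotein receptors 1 rose, Clu, which encodes the apolipoprotein clusterin, by 0.37 ± 0.11. Cav1 and Abca2, the next by p, differed by -0.16 ± 0.06 and -0.27 ± 0.12 and did not pass.

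Larger shares moved in the lists for sterol synthesis and uptake and for MiT/TFE factors and lysosomal targets, also chosen with earlier results known. Of all tested genes 5.71% rose and 4.38% fell. Of 13 tested genes of sterol synthesis and uptake 11 rose and none fell, with a median of 0.55: Cyp51, Hmgcs1 and Sqle, enzymes of the pathway, rose by 0.65 ± 0.06, 0.70 ± 0.07 and 0.55 ± 0.07. Of 12 tested MiT/TFE factors and lysosomal targets 9 rose and 1 fell, with a median of 0.50. Gpnmb, a lysosomal membrane glycoprotein, rose by 1.45 ± 0.12, Hexa, a hexosaminidase subunit, by 0.72 ± 0.07, and Ctsd, the protease cathepsin D, by 0.52 ± 0.06. The factor gene Tfe3 fell by 0.32 ± 0.08. None of these 8 lists had a called gene with the treated groups pooled against NGC or against HGC. Of all tested genes 0% were called in each, so this says nothing particular about the lists.

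**Figure D5:**
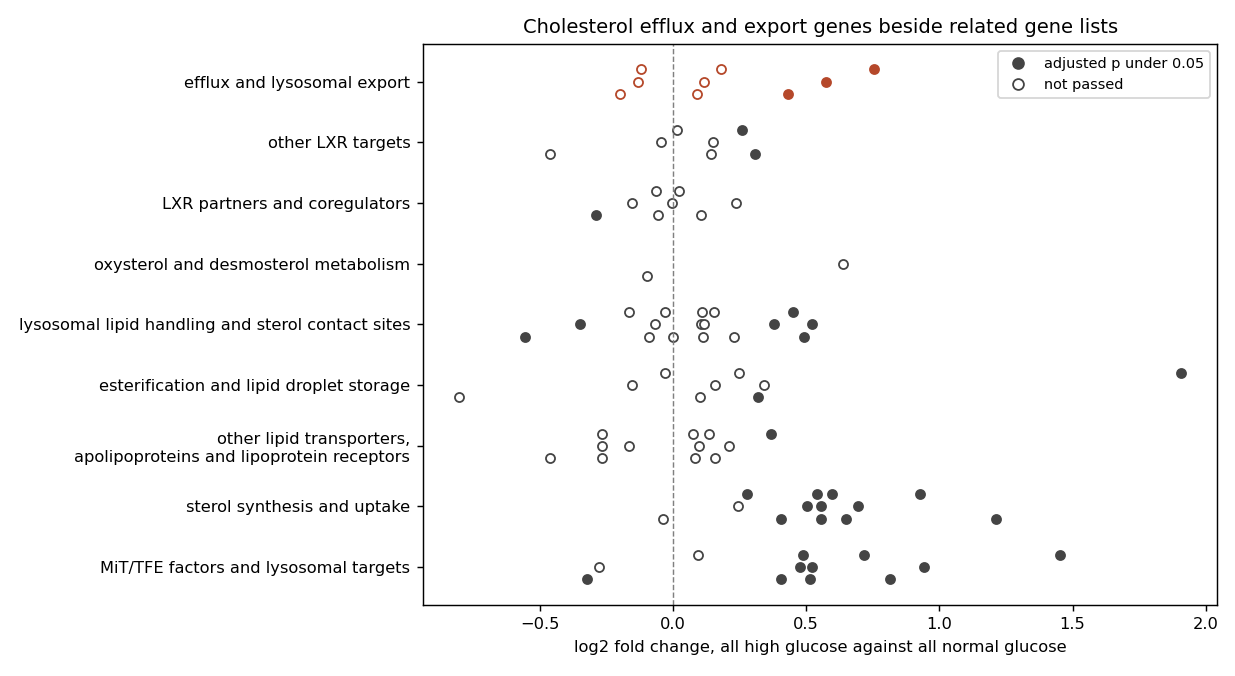
Log2 fold change over all levels of high against normal glucose (x axis) for the efflux and export genes and for 8 related lists (rows), with a point for each tested gene. Filled points passed an adjusted p of 0.05 and hollow ones did not; 11 of 13 sterol synthesis and uptake genes and 9 of 12 MiT/TFE list genes are filled to the right of 0, beside 3 of the 9 efflux and export genes.

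The markers of other cell types gave these sums beside the medium difference over all levels, where 5.71% of all tested genes rose and 4.38% fell. The 10 neuron markers summed to 139 to 161 CPM in high glucose and 135 to 187 CPM in normal glucose, and of 6 tested none rose and 1, Map2, fell by 0.39 ± 0.08. The median of the 6 was 0.00. Tubb3, the next by p, differed by -0.21 ± 0.08 without passing. Nefm and Eno2 differed by 0.64 ± 0.25 and 0.25 ± 0.11, also without passing. The 7 fibroblast and pericyte markers summed to 4488 to 5639 CPM in high glucose and 3348 to 5524 CPM in normal glucose, and of 5 tested Col1a1 rose by 0.23 ± 0.06. The 6 oligodendrocyte markers summed to 3.42 to 7.92 CPM in high glucose and 1.98 to 6.59 CPM in normal glucose, with Olig2 and Sox10 at 0. The 4 endothelial markers summed to 0.237 to 2.94 CPM in high glucose and 0 to 1.90 CPM in normal glucose. The sums overlapped between the media for all 6 marker lists, and the part of such cells in the Npc2, Npc1 and Apoe differences was not tested.

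The genes whose 8 group means followed these 3 members most closely were found by the root-mean-square difference of centred log2(CPM + 0.5) group means over 10196 genes. For Npc2 they were Tceal9 (0.0505), Lamp2 (0.0530) and Commd4 (0.0584), where the median gene differed by 0.283. For Npc1 they were Gxylt2 (0.0697), Rora (0.0846) and Fuom (0.0936), with a median of 0.366. For Apoe they were Pdp2 (0.128), Rftn1 (0.140) and Tifa (0.145), with a median of 0.446. Lamp2, the second for Npc2, had 469 ± 37.9 CPM in high glucose (SD, n = 10) and 354 ± 45.4 CPM in normal glucose (SD, n = 12). These are descriptions over 8 groups drawn from the same libraries.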

How the data were processed

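Per the labels' protocols, polyadenylated RNA was taken with a PureLink kit, treated with DNase and turned into libraries with the VAHTS Universal V8 kit. The authors deposited raw read counts per gene, 1 file per library, not normalized. STAR 2.7.5c, FastQC 0.11.9, DESeq2 3.16, HTSeq 1.99.2 and the build GRCm39 are listed in the submitters' processing notes, with no settings. Groups and replicate numbers came from the sample titles, with NG and HG read as normal and high glucose and C as control.

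The 5 HTSeq summary lines of each file stayed out of library sizes. Reads outside genes, ambiguous and aligned to several places were 14.4 to 20.6%, 3.46 to 4.15% and 16.5 to 18.9% of each library's reads. A symbol was matched to 51948 IDs, with 92.0% of gene counts. edgeR 4.0.16 in R 4.3.3 was fitted to 22 libraries with TMM factors, the default filter on low counts (13281 genes kept, 43660 IDs removed), group means and robust quasi-likelihood F tests, and p-values were adjusted within each comparison. Residual degrees of freedom were 14, with median standard errors of 0.23 for HGC against NGC and 0.12 over all levels. Exon lengths came from GENCODE annotation of build GRCm38, so no gene coordinates are printed. The scripts were tested on simulated counts.

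The members, lists, tests and the rule for named genes (all members, up to 3 of each list by p, and the 3 closest genes per called member) were chosen with earlier results of these data known. Rmc1, Srebf1, Tfe3, Tmem97, Gramd1a and Gramd1b fall outside the rule and were named after their values were seen. Some genes the rule takes are counted in their lists but not reported here by name. Alternatives were RLE or no factors, no filter, DESeq2 1.42.0, only the groups compared, the replicate number as a block, the identical library placed in HG2 or HG3, no NG3 replicate 3 and HGC replicate 2, and each library left out. The test of the medium difference over 4 levels was added after the values were seen.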

Additional observations from a re-analysis of the deposited data

How the results depend on the processing

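The number of members called in HGC against NGC ranged from 1 to 3 when each control library was left out in turn: it was 1 without NGC replicate 1, HGC replicate 2 or HGC replicate 3. Npc2 was called in all 15 alternatives of that comparison. Over all levels Npc2, Npc1 and Apoe were called in all 30 alternatives, at 0.39 to 0.47, 0.52 to 0.66 and 0.71 to 0.84 on the log2 scale, and among treated libraries in all 25. No treatment comparison called a member under any alternative. Of 2439 refitted member values none reversed a call, 12 lost one and 20 gained one, the gains all at single dose labels.

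Over all genes, leaving out 1 library moved the called genes to 163 to 258 in HGC against NGC (303 with all) and to 653 to 1279 among treated libraries (1076 with all). At dose labels 1, 2 and 3 the medium comparison called 221, 101 and 122 genes. Leaving out 1 library gave 65 to 179, 19 to 62 and 31 to 174, and the other alternatives 195 to 557, 86 to 278 and 4 to 326. NG3 against NGC called 17 genes, and 0 to 181 with 1 library left out. DESeq2 called 25 genes in NG2 and 150 in NG3 against NGC, 68 in treated normal glucose against NGC and 29 in the test between the media, where edgeR called 1, 17, 0 and 1.

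Same-numbered libraries did not deviate together: of 70 pairs 1 had a correlation over 0.1, and 7 of 22 libraries correlated best with their own number. With the replicate number as a block, 3 members were called in HGC against NGC and 3 over all levels, and Npc2 in HG2 against NG2 was called (0.44 ± 0.11, adjusted p = 0.0351). Genes with few counts, such as Nr1h3 and Mylip, have standard errors that would hide moderate differences.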
